A study of Mus musculus with 3 samples.

Results

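Histone genes were followed in whole mouse lung labelled as knockout for Lin28a and Lin28b, beside lung labelled wild type. The members were the transcripts of the deposited table whose RefSeq or GENCODE symbol begins with a histone gene stem (Hist followed by a cluster number, H1f, H2af, H2ac, H2bc, H3f3, H3c or H4c). The rule found 29 transcripts of 21 genes among 16383 transcripts, 19 by the RefSeq symbol and a further 10 by the GENCODE symbol alone. The rule uses symbols and no measured value. The members fell into 17 transcripts of 12 replication-dependent genes, 8 transcripts of 5 replacement genes and 4 transcripts of 4 germ-line variant genes.

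The tested libraries, DKO 1 and DKO 2, came from lungs labelled as knockout for Lin28a and Lin28b, the RNA-binding proteins known for blocking let-7 microRNA maturation. By the labels, exon 2 of these genes, flanked by loxP sites, was removed after tamoxifen by NKX2.1creERT, an inducible Cre recombinase made in lung epithelium. How far exon 2 was lost in these whole lungs was not checked here. The remaining library, WT, came from a lung labelled wild type. All 3 were whole lung of a C57BL/6J/mixed background, and age, sex and whether WT carried the recombinase are not in the labels; the note on tamoxifen stands on every sample, WT included. Nothing states that each DKO library is a different animal, so p-values measure only the spread between these samples, which may be technical.

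Histones package DNA into nucleosomes. Replication-dependent histone genes lie in clusters and are used mainly in S phase, and their mRNAs end in a conserved stem-loop in place of a poly(A) tail. Replacement histones, such as H3.3 and H1.0, are made outside S phase as well, from genes that lie apart and give polyadenylated mRNA. The library kit named in the labels primes cDNA on poly(A) tails, so replication-dependent values describe only the messages that such priming captures. How far that shaped the levels below was not tested.

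Lin28b, a targeted gene, had 0.187 RPKM in DKO 1, 0.590 in DKO 2 and 0.449 in WT, so it was lower than WT in DKO 1 alone; this value covers the whole transcript and does not check the loss of exon 2. Lin28a was not analysed here. The libraries also stood apart in other ways. All 4 Y-linked genes were at 0 in WT and above 0 in both DKO libraries, so sex and genotype cannot be told apart. For 8 erythroid markers 4 transcripts were tested, all above WT in DKO 1 and DKO 2, and the list summed to 28695 RPKM in DKO 1, 102701 in DKO 2 and 20191 in WT, with Alas2, Hba-a1 and Hbb-bt at 0. The 6 white blood cell markers summed to 349.6, 192 and 31.6 RPKM in the same order, with 4 of 4 tested transcripts above WT in each DKO library and Ptprc and Cd68 at 0. The 5 liver markers summed to 11.4, 183 and 7.55 RPKM, with 3 of 5 above. Of 8 lung epithelial markers, 7 were in the table and summed to 22.9 RPKM in DKO 1, 27.9 in DKO 2 and 406 in WT. The WT sum came mostly from Sftpc (7.55, 0.0364 and 369 RPKM, limma adjusted p = 0.0199). For this list 4 of 5 tested transcripts were below WT in both DKO libraries, and Nkx2-1 was at 0. Heart muscle markers summed to 11.4, 61.0 and 19.1 RPKM, with Myh6, Tnnt2 and Nppa at 0. Lung mesenchyme markers summed to 76.0, 47.7 and 52.0 RPKM, with Tbx4 at 0, and those of endothelium to 3.11, 3.13 and 3.09 RPKM, with Pecam1 at 0. The part of these differences in the histone values below was not tested. In bulk lung, fewer cells that make a histone message and less of it per cell cannot be told apart.

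The stem-loops are shown because they mark most of the replication-dependent genes. The letters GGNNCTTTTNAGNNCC were searched on the sense strand of GENCODE transcripts. They occurred in 9 of 12 replication-dependent genes, in 1 of 5 replacement genes (H2ax) and in 1 of 4 germ-line variant genes (H1f6). Among all 58797 protein-coding transcripts 98 held them, or 0.167%, and 45 of the 72 genes concerned matched the histone symbol rule. The sites of the 4 replication-dependent genes with a mean of at least 1 RPKM follow, with those of H4c17 and H2ax. RPKM are reads scaled to transcript length and library size. Capitals mark the 16 letters of the stem-loop, and all sites lie in the 3′ untranslated region on GRCm38.
H1f2: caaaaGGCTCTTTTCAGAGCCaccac
H1f4: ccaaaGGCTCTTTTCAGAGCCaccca
H3c1: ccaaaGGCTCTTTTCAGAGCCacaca
H3c7: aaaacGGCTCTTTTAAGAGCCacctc
H4c17: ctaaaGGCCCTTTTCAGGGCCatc
H2ax: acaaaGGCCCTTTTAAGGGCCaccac
H1f2, H1f4 and H3c1 carried the same 16 letters, and H3c7, H4c17 and H2ax other variants of them. The stretches printed are chr13:23739507-23739532, plus strand for H1f2, chr13:23621777-23621802, minus strand for H1f4, chr13:23761885-23761910, minus strand for H3c1, chr13:23544927-23544952, plus strand for H3c7, chr13:21812124-21812147, plus strand for H4c17 and chr9:44335235-44335260, plus strand for H2ax. H1f0, H3f3a and H3f3b had no match, and each held AATAAA or ATTAAA in its last 50 bases. These signals did not split the classes. GENCODE transcripts of the replication-dependent genes H1f2, H2bc6, H2bc23 and Hist1h2br also held one there, and those of the replacement gene Macroh2a1 did not.

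The RefSeq models of the 4 tested replication-dependent genes stop just after this site, 4 bases past it in H1f2, 5 in H1f4 and H3c1 and 7 in H3c7. The RefSeq gene of H2bc22, with 2 transcripts and at 0 in every library, reaches 13623 bases past the site on the chromosome. Counted likewise from the stem-loop, the GENCODE models run on for 840 bases in H1f2, 1153 in H1f4, 365 in H3c7 and 37 in H3c1. The RefSeq model of H2ax goes 822 bases past its stem-loop and ends, like the GENCODE one, beyond a poly(A) signal. The deposited values were read back into reads with the RefSeq lengths. All 12 values of H1f2, H1f4, H3c1 and H3c7 then came within 0.131 of a whole read. With the GENCODE lengths 4 of 12 came within 0.15, a tolerance chosen after the values were seen. By chance 30% of values would lie within 0.15. The worth of 1 read had itself been estimated with RefSeq lengths for genes of this kind, so this is a description and not a test of the gene models. The values rest on 18 to 827 reads per library.

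The promoters of H1f2 and H1f4 are shown because these linker histone genes were ordered alike over the libraries, beside those of the H3.3 genes H3f3a and H3f3b, which were ordered differently from each other. They are RefSeq sequences on GRCm38.p6 from 250 bases before to 50 after the annotated start. Capitals mark, on either strand, the CCAAT box, the H1 box AAACACA, the TATA boxes TATAAA or else TATATA, and the octamer ATTTGCAT.
H1f2: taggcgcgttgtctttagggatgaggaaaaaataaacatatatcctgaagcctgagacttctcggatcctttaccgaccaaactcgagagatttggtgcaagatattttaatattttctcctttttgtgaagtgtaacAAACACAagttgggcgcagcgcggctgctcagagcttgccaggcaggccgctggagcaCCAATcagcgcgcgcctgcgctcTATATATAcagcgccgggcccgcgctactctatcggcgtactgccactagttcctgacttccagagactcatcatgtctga
H1f4: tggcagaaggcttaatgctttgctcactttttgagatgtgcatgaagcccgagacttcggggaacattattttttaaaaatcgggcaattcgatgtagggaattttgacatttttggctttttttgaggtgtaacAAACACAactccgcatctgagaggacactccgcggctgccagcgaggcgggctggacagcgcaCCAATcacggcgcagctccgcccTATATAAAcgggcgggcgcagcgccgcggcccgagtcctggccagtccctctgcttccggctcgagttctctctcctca
H3f3a: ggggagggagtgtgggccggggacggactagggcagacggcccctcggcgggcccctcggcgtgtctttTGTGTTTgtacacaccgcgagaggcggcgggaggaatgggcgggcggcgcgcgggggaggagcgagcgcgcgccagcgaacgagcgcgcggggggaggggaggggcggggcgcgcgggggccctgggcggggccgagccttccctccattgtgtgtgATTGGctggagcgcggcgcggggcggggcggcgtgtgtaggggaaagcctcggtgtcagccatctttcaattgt
H3f3b: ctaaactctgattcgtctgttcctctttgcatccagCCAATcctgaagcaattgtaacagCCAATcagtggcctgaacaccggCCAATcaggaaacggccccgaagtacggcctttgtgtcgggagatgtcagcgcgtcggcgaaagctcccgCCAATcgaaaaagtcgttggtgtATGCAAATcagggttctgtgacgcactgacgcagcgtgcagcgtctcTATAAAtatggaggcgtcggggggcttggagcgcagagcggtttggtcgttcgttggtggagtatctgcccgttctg
These windows are chr13:23738557-23738856, plus strand for H1f2, chr13:23622509-23622808, minus strand for H1f4, chr1:180813556-180813855, minus strand for H3f3a and chr11:116024455-116024754, minus strand for H3f3b, where the table's start lies inside the annotated gene. Of the 8 tested genes, 5 had an entry in the promoter table. AAACACA, known as the H1 box of linker histone genes, began 112 bases upstream of the start in H1f2 and 115 in H1f4, within a run of 15 bases shared by the pair (GTGTAACAAACACAA). It occurred in 7.18% of all 32851 promoters of this length, and in H3f3a it was found on the opposite strand. CCAAT, the binding letters of NF-Y, began 54 and 52 bases upstream in H1f2 and H1f4, was found 4 times in H3f3b, and was on the opposite strand in H3f3a; 37.4% of all promoters held it. TATATA was found in H1f2, as a pair of overlapping matches, and in H1f4, where it overlapped TATAAA; 5.67% of all promoters held it. TATAAA, in 13.6% of all promoters, was also in H3f3b, as was ATTTGCAT on the opposite strand, the octamer known from H2B genes and held by 1.74% of promoters. TTTNNCGC, letters bound by E2F factors, was in none of these 4 and in 5.17% of all promoters. Among the other linker histone genes, H1f6, at 0 in every library, held AAACACA 114 bases upstream, with CCAAT and TATATA. H1f0 held none of the letters searched. A match is a description of letters, not of binding, and any tie to the order of the libraries was not tested.

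A total of 19 of the 29 members were listed at 0 in every library, or 65.5%, against 68.0% of the whole table. A 0 here can be a failed estimate. All 8 members that the table lists at more than 1 place (H2ac18, H2ac23, H2bc23 and Hist1h2br) were at 0, as were 98.7% of all 974 such transcripts. Of the 8 members at a single place whose gene has several RefSeq transcripts, 7 were at 0, against 78.7% of all such transcripts. All 4 of Macroh2a1, a replacement H2A that many tissues make, were among these 7. Of the 13 members with a single transcript at a single place, 4 were at 0, against 39.7% of all such transcripts. These 4 were the testis variants H1f6, H2ab1, H2ab2 and H2ab3. The genes for H2A.Z and the transcripts with later identifiers were not analysed here.

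A further 2 members lay above 0 with a mean under 1 RPKM. H2bc4, an H2B gene of the large cluster on chromosome 13, had 0.209 RPKM in DKO 1 and 0.249 in DKO 2 with WT at 0. H4c17, an H4 gene of that cluster, had 0.0805 RPKM in DKO 1, the worth of 1 read, with both other libraries at 0. Among the replication-dependent members, those for H2A, H2B and H4 therefore all lay under the limit for testing, a mean of 1 RPKM. RefSeq holds 84 protein-coding histone genes by symbol or synonym, and the members here cover 21 genes. Since a 0 can also be a failed estimate, these values do not give the level of H2A, H2B or H4 messages as a whole. The remaining 8 members passed the limit for testing, 4 of them replication-dependent and 4 replacement.

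Replication-dependent histone messages were highest in DKO 1 and lowest in DKO 2, with WT between them, for all 4 tested genes. This order held for the linker histones H1f2 and H1f4 and for the core histones H3c1 and H3c7, and also for the replacement gene H3f3a. Over all 2066 tested transcripts, 16.9% were above WT in DKO 1 and below it in DKO 2. The DKO libraries thus did not move one way, and none of the 4 genes passed the test of DKO against WT.

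**Figure D1:**
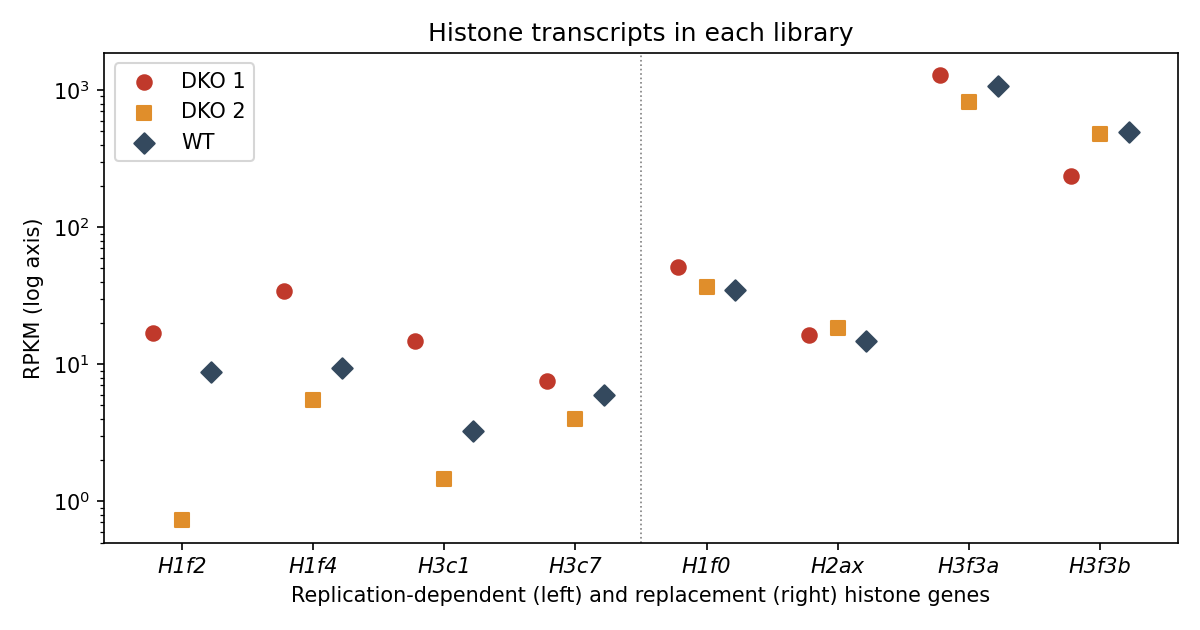
RPKM of the 8 tested histone genes (log axis) in DKO 1, DKO 2 and WT, 1 point per library, with replication-dependent genes left of the dotted line and replacement genes right of it. In H1f2, H1f4, H3c1 and H3c7 the DKO 1 point is the highest and the DKO 2 point the lowest.

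H1f2, which encodes the linker histone H1.2 (NM_015786, GRCm38 chromosome 13, 23738807 to 23739531, 1 exon), had 16.95 RPKM in DKO 1, 0.726 in DKO 2 and 8.78 in WT. These values stand for 377, 18 and 310 reads. The ratio to WT was 1.93 in DKO 1 (95% exact interval 1.66 to 2.25) and 0.0827 in DKO 2 (0.0484 to 0.133). The DKO libraries lay on either side of WT, and their own distance, 3.38 on the log2(RPKM + 1) scale, was the widest of the 8 tested members.

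H1f4, which encodes H1.4 (NM_015787, chromosome 13, 23621777 to 23622558, 1 exon), had 34.5 RPKM in DKO 1, 5.50 in DKO 2 and 9.40 in WT, or 827, 147 and 358 reads. Its ratio to WT was 3.67 in DKO 1 (3.24 to 4.16) and 0.585 in DKO 2 (0.479 to 0.711). H1f4 thus shared the order of H1f2 but not its proportions, since H1f4 stood at 2.03 times H1f2 in DKO 1, 7.57 times in DKO 2 and 1.07 times in WT.

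H3c1, an H3 gene of the chromosome 13 cluster (NM_013550, GENCODE Hist1h3a, 23761885 to 23762386, 1 exon), had 14.8 RPKM in DKO 1, 1.46 in DKO 2 and 3.27 in WT, or 228, 25 and 80 reads. Its ratio to WT was 4.53 in DKO 1 (3.49 to 5.91), the highest among the tested members, and 0.445 in DKO 2 (0.272 to 0.705). H3c7 (NM_013548, GENCODE Hist1h3f, 23544052 to 23544954, 1 exon), another H3 gene of that cluster, had 7.55 RPKM in DKO 1, 3.98 in DKO 2 and 5.96 in WT, or 209, 123 and 262 reads. Its ratios were narrower, 1.27 in DKO 1 (1.05 to 1.52) and 0.669 in DKO 2 (0.535 to 0.832). Clustered H3 genes have near-identical coding sequences, so how their reads were divided is uncertain.

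**Figure D2:**
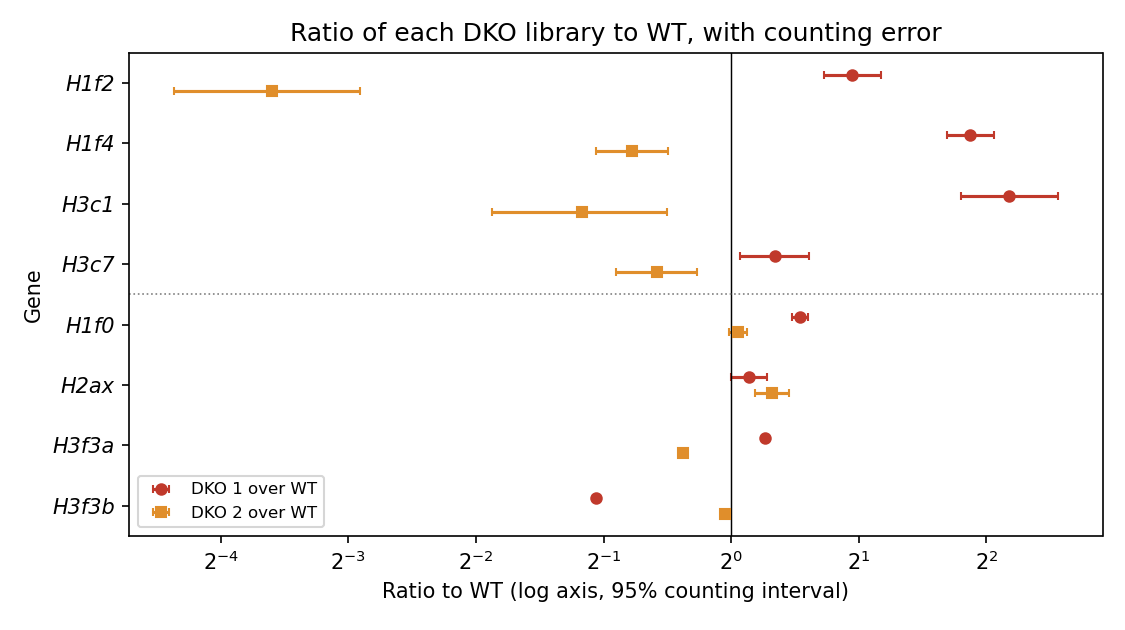
Ratio of DKO 1 and of DKO 2 to WT (log axis) for each tested histone gene, with 95% intervals that cover counting error only. For the 4 replication-dependent genes above the dotted line the DKO 1 intervals lie right of 1 and the DKO 2 intervals left of it; the intervals of H3f3a and H3f3b are narrower than their points.

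The distance between the DKO libraries is given with intervals for counting error that treat every read as independent. The ratio of DKO 1 to DKO 2 was 23.3 for H1f2 (14.6 to 39.8), 10.2 for H3c1 (6.71 to 16.04), 6.27 for H1f4 (5.26 to 7.53) and 1.89 for H3c7 (1.51 to 2.39). These intervals do not include the variation between animals or in cDNA amplification, and reads copied by PCR are not independent molecules. Of all tested transcripts, 12.8% were at least 2-fold higher in DKO 1 than in DKO 2 on the log2(RPKM + 1) scale, and 3 of the 4 replication-dependent genes were.

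By size against WT alone, counted on the log2(RPKM + 1) scale, 2 of the 4 replication-dependent genes, H1f4 and H3c1, were at least 2-fold higher in DKO 1, against 8.03% of tested transcripts. In DKO 2, 1 of 4, H1f2, was at least 2-fold lower on this scale, against 11.8%; H3c1, with an RPKM ratio of 0.445, was at −0.80 on it. A 2-fold distance from WT with a shared sign in DKO 1 and DKO 2 was found for 0 of the 8 tested members and for 5.47% of tested transcripts (3.87% higher and 1.6% lower). Being on a shared side of WT at any size, H1f0 and H2ax lay above it in both, as did 32.1% of tested transcripts, and H3f3b below it in both, as did 31.0%. The order DKO 1 above WT above DKO 2 held for all 4 genes in the RPKM as deposited and with the 4 rescalings tried, but it was not limited to them. H3f3a had it in all 5 forms, H1f0 with each rescaling and H2ax with TPM. It was thus found in 5 of the 8 tested members as deposited and in 6 with scaling to the median, with quantiles and without haemoglobin transcripts, where 17.5%, 17.7% and 17.8% of all transcripts then tested had it. With TPM, 7 of 8 members and 21.9% of tested transcripts had it.

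**Figure D3:**
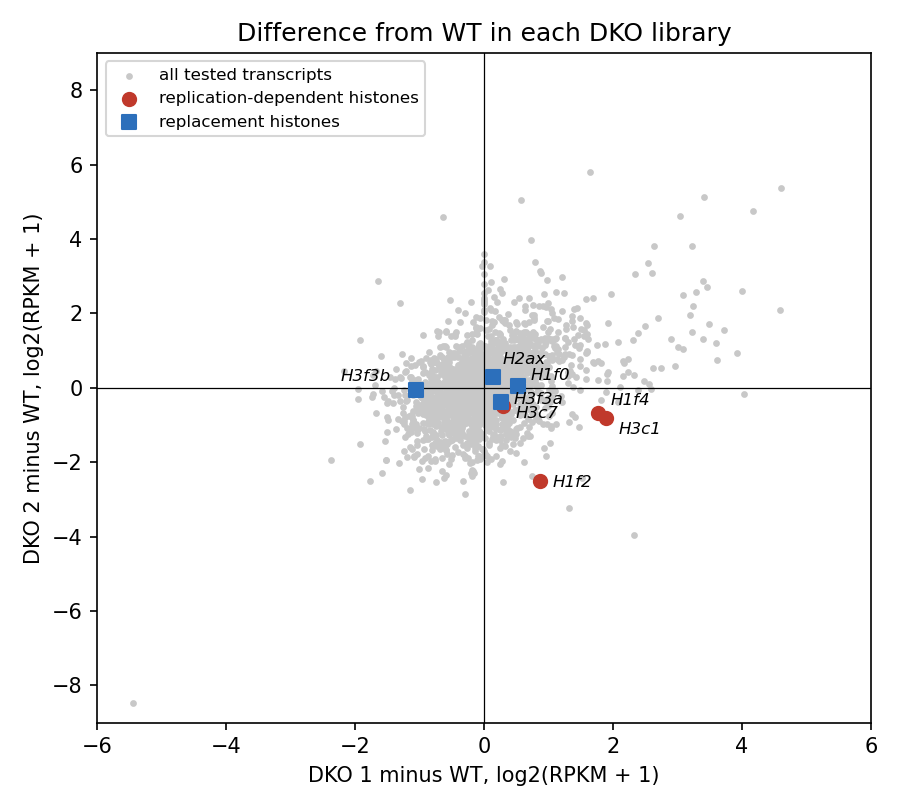
Difference from WT on the log2(RPKM + 1) scale in DKO 1 (x axis) and DKO 2 (y axis) for the 2066 tested transcripts (grey), the 4 replication-dependent histone genes (circles) and the 4 replacement histone genes (squares). All 4 circles lie to the lower right of the origin, and 3 of the 4 squares lie close to the centre.

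The test of DKO against WT was limma across all tested transcripts, with the spread taken from the DKO libraries. None of the 8 tested histone members passed, where 0.0968% of tested transcripts did (2 of 2066). The adjusted p was 0.999 for each of the 8, and 0 of them had an unadjusted p under 0.05 (3.19% of tested transcripts did), the lowest being 0.456. The mean log2 differences were 0.55 for H1f4 (SE 0.93), 0.54 for H3c1 (SE 0.92), −0.093 for H3c7 (SE 0.67) and −0.81 for H1f2 (SE 1.06). Since the DKO libraries lay on opposite sides of WT, these means describe neither library, and the sign of each was that of 1 library. An exact permutation test over these 3 libraries could not give a p under 1 in 3.

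Replacement histone messages differed less between the libraries, apart from H3f3b. H3f3a and H3f3b, which encode the same H3.3 protein, were among the most abundant transcripts of the table. H3f3a (NM_008210, chromosome 1, 180802560 to 180813605, 4 exons) had 1286 RPKM in DKO 1, 824 in DKO 2 and 1073 in WT, which placed it at rank 68, 92 and 79 of the 16383 transcripts. Its ratio to WT was 1.20 in DKO 1 (1.19 to 1.21) and 0.769 in DKO 2 (0.762 to 0.775), so it shared the order of the replication-dependent genes with a narrower spread. RefSeq also lists processed copies of H3f3a as pseudogenes, to which some reads may belong.

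H3f3b (NM_008211, chromosome 11, 116021961 to 116026039, 4 exons) had 237 RPKM in DKO 1, 478 in DKO 2 and 494 in WT. Its ratio to WT was 0.480 in DKO 1 (0.471 to 0.489) and 0.968 in DKO 2 (0.955 to 0.982), below 1 in both libraries and with each rescaling. It was the only tested member at least 2-fold lower in DKO 1, where 5.52% of tested transcripts were. The mean log2 difference was −0.55 (SE 0.82, limma adjusted p = 0.999).

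The H3.3 genes together stood at 1523 RPKM in DKO 1, 1303 in DKO 2 and 1567 in WT, so their sum varied less than either gene. H3f3a made up 84.4% of that sum in DKO 1, 63.3% in DKO 2 and 68.5% in WT. The clustered genes H3c1 and H3c7 added 22.4 RPKM in DKO 1, 5.44 in DKO 2 and 9.23 in WT. Their part of the summed RPKM of H3c1, H3c7, H3f3a and H3f3b was therefore 1.45% in DKO 1, 0.416% in DKO 2 and 0.586% in WT. Other H3 genes, Cenpa among them, are not in this sum.

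H1f0, which encodes H1.0, a linker histone known from resting and differentiated cells (NM_008197, chromosome 15, 79028212 to 79030504, 1 exon), had 50.9 RPKM in DKO 1, 36.4 in DKO 2 and 35.0 in WT. Its ratio to WT was 1.45 in DKO 1 (1.39 to 1.52) and 1.04 in DKO 2 (0.988 to 1.09). In DKO 2 it was within counting error of WT and lay below WT with all 4 rescalings, at ratios of 0.799 to 0.957. H1f0 was the most abundant of the 3 linker histone genes above 0 in every library, with 49.8% of their summed RPKM in DKO 1, 85.4% in DKO 2 and 65.8% in WT.

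H2ax, the H2A variant that is phosphorylated at DNA breaks (NM_010436, chromosome 9, 44334715 to 44336077, 1 exon), is known to give both a stem-loop and a polyadenylated message. It had 16.2 RPKM in DKO 1, 18.4 in DKO 2 and 14.7 in WT, or 679, 856 and 978 reads. Its ratio to WT was 1.10 in DKO 1 (0.998 to 1.22) and 1.247 in DKO 2 (1.14 to 1.37). As deposited, DKO 2 was the highest library and WT the lowest. With TPM the ratios were 1.05 in DKO 1 and 0.960 in DKO 2, the order of the replication-dependent genes over a narrow range.

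**Figure D4:**
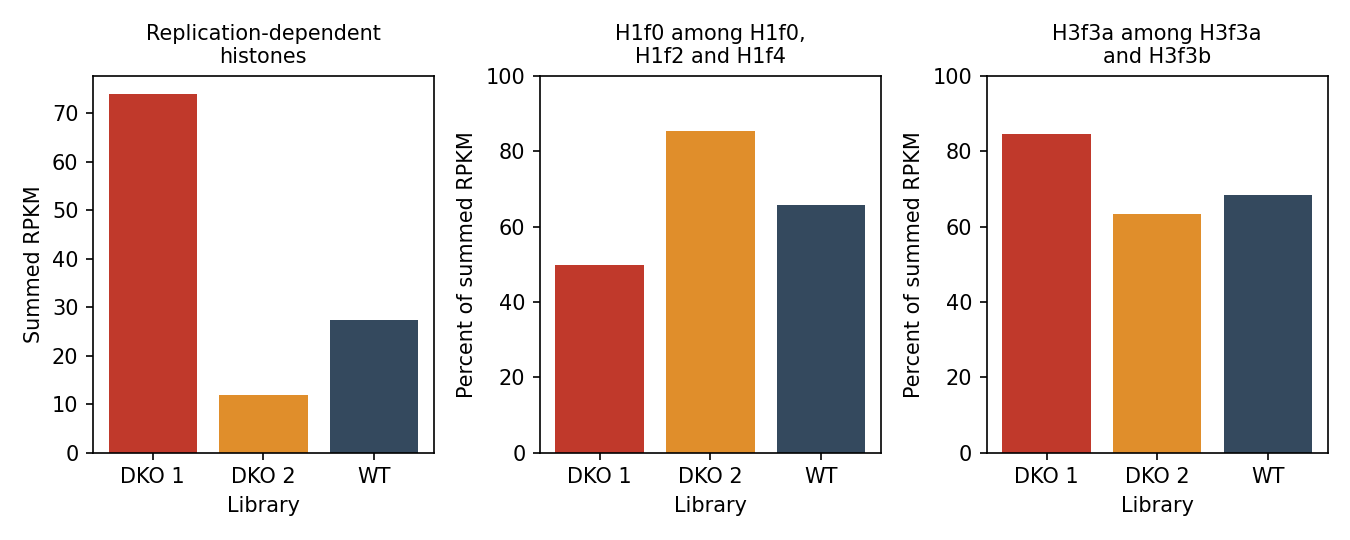
Bars from 0 give, for DKO 1, DKO 2 and WT, the summed RPKM of the replication-dependent histones, the percent of linker histone RPKM from H1f0, and the percent of H3.3 gene RPKM from H3f3a. The first sum is 74.1 in DKO 1, 11.9 in DKO 2 and 27.4 in WT.

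Summed over the class, replication-dependent histones had 74.1 RPKM in DKO 1, 11.9 in DKO 2 and 27.4 in WT. Replacement histones had 1591 RPKM in DKO 1, 1358 in DKO 2 and 1616 in WT. The replication-dependent part of the summed member RPKM was 4.45% in DKO 1, 0.870% in DKO 2 and 1.67% in WT. On the log2(RPKM + 1) scale the median difference of the 4 tested replication-dependent genes was 1.32 in DKO 1 and −0.74 in DKO 2, and that of the 4 replacement genes was 0.20 and 0.0027 in the same order. Over all tested transcripts the medians were −0.011 and 0.037.

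Genes of S phase, in which replication-dependent histones are made, were spread over all 4 orders around WT. Of 16 tested transcripts of this list, 2 were above WT in DKO 1 and below it in DKO 2 (16.9% of all tested transcripts were) and 4 the reverse (19.4%). A further 4 were above WT in both (32.1%) and 6 below in both (31.0%), shares near those of all tested transcripts, and 0 passed limma. Their median log2 difference was −0.14 in DKO 1 and 0.012 in DKO 2. Pcna, the sliding clamp of DNA polymerase, had 222 RPKM in DKO 1, 220.4 in DKO 2 and 216 in WT. Mcm2, a subunit of the replicative helicase, had 8.23, 8.65 and 5.95 RPKM in the same order, and Mcm7, another subunit, 18.1, 34.9 and 35.2. Mki67, a marker of cycling cells, had 7.87 RPKM in DKO 1, 5.32 in DKO 2 and 14.3 in WT, and Top2a, a topoisomerase of S phase and mitosis, 22.3, 12.1 and 25.5. Those with the order of the replication-dependent histones were Pola1 (6.82, 1.10 and 3.15 RPKM) and Prim1 (40.2, 17.96 and 38.2 RPKM), which encode subunits of the DNA polymerase alpha and primase complex and were named after their values were seen.

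Few genes that act on histone messages could be tested. Of 17 transcripts listed for histone mRNA transcription and processing, 13 were at 0 in every library and 2 were tested, with 0 passing. Npat, the activator of clustered histone genes, had 2.28 RPKM in DKO 1, 0.696 in DKO 2 and 2.72 in WT. Snrpb, a core snRNP protein that the U7 particle of histone mRNA processing also uses, had 31.4, 62.0 and 32.6 RPKM in the same order. The list median was −0.12 in DKO 1 and −0.11 in DKO 2.

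Among histone chaperones, 9 transcripts were tested, 2 above WT in both DKO libraries (32.1% of all tested transcripts were) and 4 below in both (31.0%), and 0 passed. The median difference was −0.15 for DKO 1 and −0.0020 for DKO 2. Chaf1a, the large subunit of the replication-coupled H3 and H4 chaperone CAF-1, had 3.69 RPKM in DKO 1, 1.83 in DKO 2 and 5.26 in WT. Atrx, which deposits H3.3 with Daxx, had 4.75 RPKM in DKO 1, 1.08 in DKO 2 and 5.13 in WT. Npm3, a nucleoplasmin family member, had 43.7, 64.5 and 33.3 RPKM. Cenpa, the centromeric H3 variant outside the symbol rule, had 62.2 RPKM in DKO 1, 158 in DKO 2 and 59.4 in WT, a log2 difference of 0.73 (SE 0.86, limma adjusted p = 0.999).

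The HMG proteins, which bind linker DNA and nucleosomes, had 5 tested transcripts, of which 3 lay below WT in both DKO libraries, as did 31.0% of all tested transcripts, and 0 passed. Their median was −0.68 in DKO 1 and −0.69 in DKO 2. Hmgb1 had 671 RPKM in DKO 1, 340.5 in DKO 2 and 1077 in WT, and Hmgn1 had 279, 522 and 598. Hmga2, a fetal chromatin protein and let-7 target, had 18.3 RPKM in DKO 1, 20.8 in DKO 2 and 34.0 in WT. Hmgb2, named after its values were seen, had the replication-dependent order, with 860 RPKM in DKO 1, 182 in DKO 2 and 612 in WT.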

How the data were processed

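RNA of 3 whole-lung libraries was profiled, 2 DKO and 1 WT. Per the labels, Trizol-extracted RNA was made into cDNA with a SMARTer Ultra Low Input kit. The submitters' processing notes name cutadapt, TopHat2, HTSeq, edgeR and build mm10; the sources used here do not give versions, annotation, strand setting or the treatment of reads with several matches, so overlapping genes and near-identical copies are uncertain. The authors deposited RPKM, with 1 column per library, for 16383 RefSeq transcripts.

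Symbols came from a RefSeq table (GRCm38.p6) and GENCODE M21, which left 155 transcripts unnamed. The worth of 1 read was estimated from low values of RPKM times length (RefSeq gene length for genes with 1 exon and 1 transcript, otherwise GENCODE), which put depth at about 30700000 reads for DKO 1, 34200000 for DKO 2 and 48700000 for WT. Of values of 1 to 100 reads, 46.2%, 45.3% and 47.3% in the same order lay within 0.05 of a whole read. Ratios carry 95% exact intervals from these reads, for counting error only.

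Values were tested as log2(RPKM + 1) with limma 3.58.1 in R 4.3.3 (two-sided, mean-variance trend, Benjamini-Hochberg adjustment) over the 2066 transcripts whose mean reached 1 RPKM. There was 1 residual degree of freedom, from the DKO libraries. This scale understates fold changes of low genes. The procedure was tested on simulated data, with planted changes larger than any histone difference from WT seen here. How often it finds smaller changes was not tested. Members, classes and gene lists were chosen with earlier results of these data known. Genes named are the tested members, members above 0, up to 4 tested genes of each list that DKO 1 and DKO 2 put on 1 side of WT (largest mean difference first), Lin28b, and Pcna, Pola1, Prim1, Hmgb2 and Snrpb, added after their values were seen. Alternatives were other pseudocounts, filters, scalings and limma settings, and leaving out each DKO library.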

Additional observations from a re-analysis of the deposited data

How the results depend on the processing

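No histone member passed limma under any of the 10 alternatives with a test, where the lowest adjusted p was 0.922, and 0 of the 32 tested transcripts of the other chromatin and S phase lists passed. Over the whole table, the 2 calls became 13 with a pseudocount of 0.1, 1 with a pseudocount of 5, 0 without a filter, 10 with a filter at 5 RPKM, 16 with median scaling, 0 with TPM, 0 with quantile normalization and 16 without haemoglobin; the cause was not tested. The whole table's 113 transcripts past the 2-fold rule became 216 with a pseudocount of 0.1, 39 with 5, 62 with the filter at 5 RPKM, 233 with TPM and 357 with a 1.5-fold rule. Filters and scalings also changed how many transcripts were tested, so these counts and those of limma are over unlike sets. With TPM the limit and the pseudocount stayed at 1, and 2776 transcripts were tested in place of 2066. Leaving out 1 DKO library turns the rule into one on a single library and gave 280 to 555 transcripts, with 1 to 3 histone members in place of 0 and 2 to 9 list transcripts in place of 0. The 1.5-fold rule gave 3 list transcripts.

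The replication-dependent class median (0.226) was 0.011 with TPM, −0.74 without DKO 1 and 1.32 without DKO 2. The mean DKO sum of that class over WT (1.57) was 0.434 without DKO 1 and 2.70 without DKO 2. The replacement class median (0.079) was −0.14 with TPM, and the mean DKO sum of the replacement class over WT (0.912) was 0.791 with TPM. The median of all tested transcripts (−0.0095) was −0.081 with median scaling, −0.22 with TPM, −0.065 with quantiles, −0.078 without haemoglobin, and −0.011 to 0.037 without 1 DKO library. TPM thus shifts every histone difference down with the rest. The sign of the mean difference followed 1 library in 5 of the 8 tested members. Leaving out DKO 2 gave H1f2 0.88, H3c7 0.30 and H3f3a 0.26, and leaving out DKO 1 gave H1f2 −2.50, H3c7 −0.48 and H3f3a −0.38. H3c1 had −0.80 without DKO 1 and 1.89 without DKO 2, and H1f4 had −0.68 and 1.77. No paired analysis was possible because WT carries no replicate number. Among the tested members the fewest reads stood behind H1f2 and H3c1 in DKO 2, at 18 and 25. H4c17 rested on 1 read in DKO 1. With the GENCODE length H2bc4 came to 7.39 reads in DKO 1 and 9.85 in DKO 2. Those are not whole reads, so its count is uncertain. The values of these 4 genes are the least precise.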
